A study of Mus musculus with 82 samples.

Results

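The transcriptomes of CD4 T cells from mice immunized with ovalbumin a month earlier, here called primed, were compared with those of CD4 T cells from mice that had not been immunized, here called naive, both after saline alone. The comparison held 13 of the 82 libraries of the series, 8 primed and 5 naive. The naive libraries were the 5 saline samples labelled OT-II in the prophylactic experiment. The primed libraries were the saline samples of the therapeutic experiment with more Cd4 than Cd8a counts, so these measured counts chose the members. Of these 8, 6 were labelled OT-II (replicates 1, 2, 4, 5, 6 and 7) and 2 were labelled OT-I (replicates 3 and 6). The primed libraries had 12998 to 55211 counts of Cd4 and 5 to 316 of Cd8a, and the naive libraries 25651 to 33291 and 34 to 652. Nearest to the limit on its inner side was the library labelled OT-II replicate 1, with 13027 Cd4 and 316 Cd8a counts. The saline library labelled OT-II replicate 3 had 178 Cd4 and 40124 Cd8a counts and was counted with the CD8 cells.

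OT-I and OT-II are T cells of transgenic mice whose receptors recognize ovalbumin peptides on MHC class I and class II, so that OT-I cells are CD8 and OT-II cells CD4 T cells. All recipients were wild-type mice that had been given both kinds of cells. For the primed libraries, the mice were immunized under the skin with ovalbumin in complete Freund's adjuvant the day after transfer and were given saline a month later. For the naive libraries, saline was given the day after transfer and no immunization took place. In both experiments spleen and lymph nodes were collected 4 days after saline, and the cells were isolated by fluorescence-activated sorting. Each primed library came from 1 mouse, and its cells were sorted into buffer, spun down and snap frozen. Each naive library came from 3 pooled mice, and its cells were sorted into Trizol; 3 naive libraries belong to batch 1 and 2 to batch 2. All cDNA was made with SmartSeq v4. The strain label is C57BL/6 in the naive libraries and carries a different number in each therapeutic one, so it does not settle the strain of the primed mice. Immunization, time in the host, pooling, sort medium and deposited table all separate primed from naive libraries in the same way, and their effects cannot be told apart.

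Naive CD4 T cells circulate between blood and lymphoid tissue, enter lymph nodes by way of CCR7, and are kept quiescent by transcription factors such as TCF-1, LEF-1, KLF2 and FOXO1. After antigen they divide and take up helper fates: T helper 1 cells make interferon gamma under T-bet, and follicular helper cells carry CXCR5, ICOS and PD-1 and make IL-21 for B cells. Some persist as memory cells, which keep CD44 and integrins high and release cytokines quickly. Regulatory T cells, defined by Foxp3, and anergic cells, marked by folate receptor 4 and CD73 (products of Izumo1r and Nt5e), restrain such responses.

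The estimated counts of a library summed to 32.2 to 58.0 M (M, 1e6) in primed and 32.9 to 57.4 M in naive cells. Levels are given as CPM, counts scaled to a common total of 1e6 per library with TMM factors, which do not correct for gene length, so they are compared between libraries and not between genes. By the correlation of log2 levels over 9629 genes, the primed libraries labelled OT-II replicates 7 and 1 stood apart, with a median r to the other primed libraries of 0.829 and 0.837, where the other 6 had 0.885 to 0.935 and the naive libraries 0.941 to 0.965 to their own group. Both libraries labelled OT-I were most like a primed library labelled OT-II (r = 0.964 and 0.958).

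**Figure D1:**
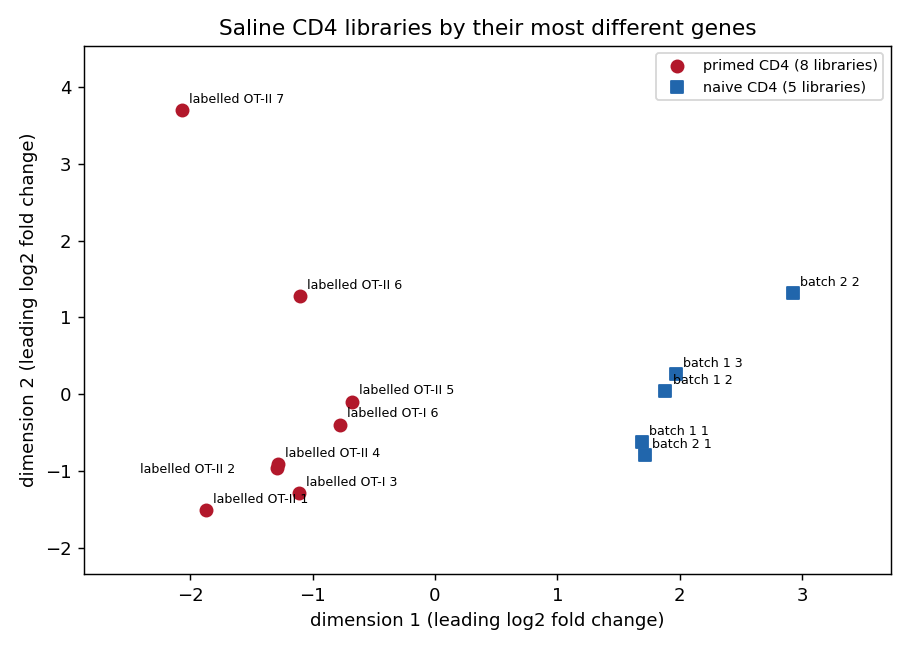
Multidimensional scaling of the 13 saline CD4 libraries, with the leading log2 fold change on both axes (22.4% and 14.8% of the variance). Points are libraries, red circles primed and blue squares naive. Primed libraries lie between -2.07 and -0.68 and naive ones between 1.69 and 2.92 on dimension 1, and the primed library labelled OT-II 7 lies alone at 3.70 on dimension 2.

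The plot of libraries by their most different genes separates primed from naive along its first axis, with the 2 libraries labelled OT-I among the primed ones. Cd4 averaged 746 ± 306 CPM in primed and 659 ± 107 CPM in naive libraries (SD, n = 8 and 5, as for all means below). Cd8a averaged 2.52 ± 2.55 CPM in primed and 5.94 ± 7.35 CPM in naive libraries, and Cd8b1 averaged 18.2 ± 6.44 CPM in primed and 51.0 ± 7.30 CPM in naive libraries. The choice of primed libraries used the counts of Cd4 and Cd8a, and Cd8b1 encodes the partner chain of Cd8a, so all 3 are given as a description.

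Of 13768 genes tested, 909 were higher in primed cells (6.6% of the genes tested) and 585 lower (4.25%) at an adjusted p under 0.05 (edgeR quasi-likelihood test, Benjamini-Hochberg adjustment over all genes tested, as for all adjusted p of single genes below). Against a change of 2-fold instead of none, 223 genes were higher (1.62%) and 52 lower (0.378%). The median log2 fold change over all genes tested was 0.07, and the primed and naive libraries did not overlap in 7.42% of all genes tested. Of the 275 genes called beyond 2-fold, 270 were also tested with only the 6 primed libraries labelled OT-II. All 270 were called there in the same direction, but against no change and not against 2-fold. Beyond 2-fold that fit called 239 genes, of which 223 were among the 275. These 6 libraries are part of the primed group and were set against the same naive libraries, so that fit is not independent of the main one. With limma voom the split of all called genes was 746 higher and 817 lower. The count of 1494 called genes was 971, 888 and 882 without naive batch 1 library 1, 2 or 3 and 976 without naive batch 2 library 2, and the count of 275 beyond 2-fold was 180 without naive batch 1 library 2. In every one of the 13 fits that each leave out 1 library, 740 genes were called, and 160 were called beyond 2-fold in every one. In bulk RNA, fewer cells that express a gene and less RNA per cell cannot be told apart. The shares of 6.6% higher and 4.25% lower are the background for every gene list below. Where a list has few calls, near these shares, its count is a description and not a result about the list.

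**Figure D2:**
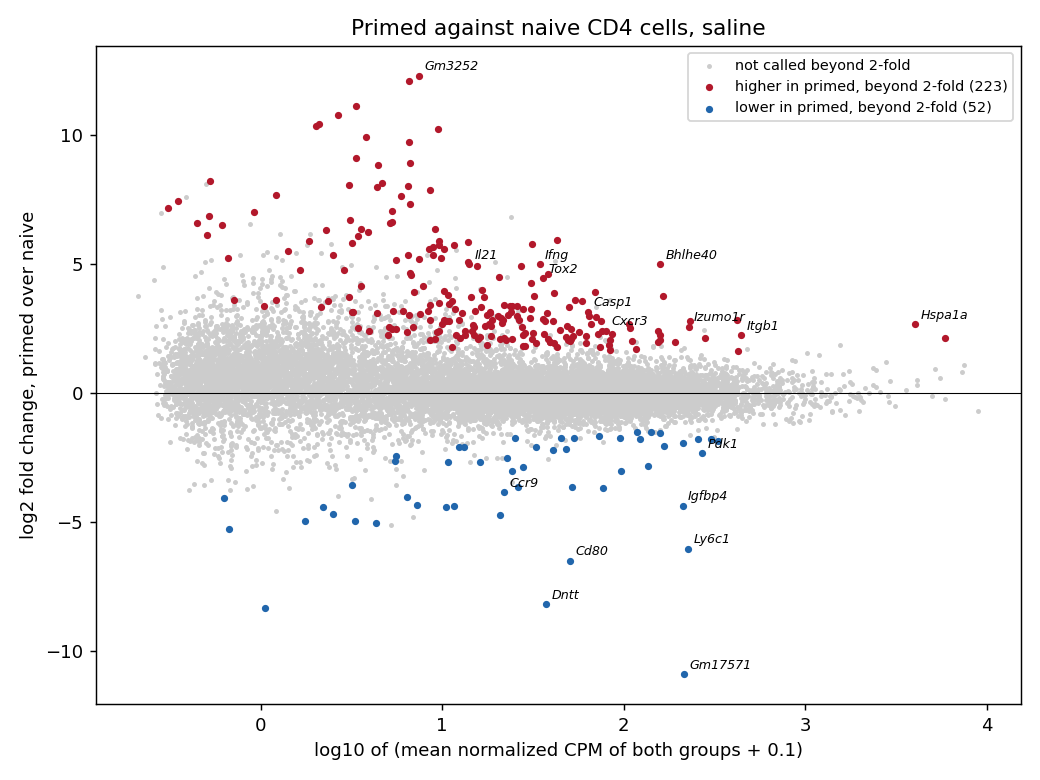
Log2 fold change of primed over naive CD4 cells against the log10 of the mean CPM plus 0.1, 1 point per gene tested. Red marks the 223 genes higher and blue the 52 genes lower in primed cells beyond 2-fold. Gm3252 lies highest, at 12.27, and Gm17571 lowest, at -10.91, and both are taken up with the largest changes; the value of Gm3252 depends on the prior count, since its naive libraries are all at 0.

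Most listed genes of naive and quiescent T cells were lower in primed cells. Of 28 tested, 17 were lower, 5 of these 17 beyond 2-fold, and none was higher; the median log2 fold change was -0.86, beside 0.07 over all genes tested. Dntt, the terminal transferase of developing lymphocytes (chr19:41029275-41059525, GRCm38, as for all positions), had 0, 0 and 1.31 CPM as the lowest, median and highest of the primed libraries, against 78.2, 78.4, 69.2, 77.3 and 68.4 CPM in the naive libraries, those of batch 1 first. Every naive library was far above every primed one (log2 fold change -8.19 ± 0.96, adjusted p = 4.54e-05; ± is the SE for all log2 fold changes). With DESeq2 its log2 fold change was -4.58 and was not called (adjusted p = 0.132). Ly6c1, a surface protein of lymphocytes and monocytes (chr15:75044018-75048830), had 0.631, 5.70 and 17.6 CPM in primed libraries, against 484, 431, 464, 315 and 525 CPM in naive libraries. The groups were again far apart (log2 fold change -6.05 ± 0.51, adjusted p = 3.53e-06), although reads may be shared with its near-identical neighbour Ly6c2. Igfbp4, which binds insulin-like growth factors (chr11:99041244-99054392), had 5.23, 20.7 and 32.0 CPM in primed libraries, against 565, 327, 303, 379 and 438 CPM in naive libraries. Its highest primed library lay well under its lowest naive one (log2 fold change -4.37 ± 0.41, adjusted p = 7.78e-06). Ccr9, the receptor that guides T cells to the small intestine, had 0.316, 2.37 and 6.44 CPM in primed libraries, against 31.1, 44.9, 48.7, 40.0 and 38.7 CPM in naive libraries, also without overlap (log2 fold change -3.86 ± 0.44, adjusted p = 3.87e-05). The fifth gene lower beyond 2-fold was Treml2 (-2.10); here and below, a bare number in brackets after a gene is its log2 fold change.

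The transcription factors and homing receptors of naive cells differed by less. Lef1, which with TCF-1 keeps the naive state, had 237, 307 and 341 CPM in primed libraries, against 662, 707, 698, 553 and 604 CPM in naive libraries. The groups did not overlap (log2 fold change -1.12 ± 0.13, adjusted p = 5.75e-05). Satb1, an organizer of chromatin in T cells, had 352, 610.2 and 716 CPM in primed libraries, against 1237, 1323, 1254, 1251 and 1222 CPM in naive libraries, with the lowest value in the library labelled OT-II 7 and no overlap (log2 fold change -1.11 ± 0.15, adjusted p = 0.000168). Ccr7 averaged 523 ± 199 CPM in primed and 1048 ± 197 CPM in naive libraries (log2 fold change -1.002 ± 0.25, adjusted p = 0.0192). Tcf7, the gene of TCF-1, averaged 1493 ± 490.3 CPM in primed and 2457 ± 194 CPM in naive libraries (log2 fold change -0.72 ± 0.22, adjusted p = 0.0428). Neither gene overlapped between the groups. Leaving out 1 library at a time ended the call of Ccr7 without naive batch 1 library 1 or naive batch 1 library 3 (highest adjusted p = 0.0599) and Tcf7 in 9 of 13 fits, 5 of them without a naive library (highest adjusted p = 0.104). With the 6 primed libraries labelled OT-II only, the adjusted p was 0.0692 for Tcf7. Bach2, a repressor of effector genes, and S1pr1, the receptor for exit from lymph nodes, were lower too, with log2 fold changes of -1.42 and -1.22. Klf2, which drives S1pr1 expression, averaged 1071 ± 309 CPM in primed and 756 ± 79.5 CPM in naive libraries (log2 fold change 0.50 ± 0.20, adjusted p = 0.118), and Il7r, the receptor for the survival cytokine IL-7, averaged 391 ± 107 CPM in primed and 264 ± 16.7 CPM in naive libraries (log2 fold change 0.57 ± 0.19, adjusted p = 0.0671); neither was called.

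**Figure D3:**
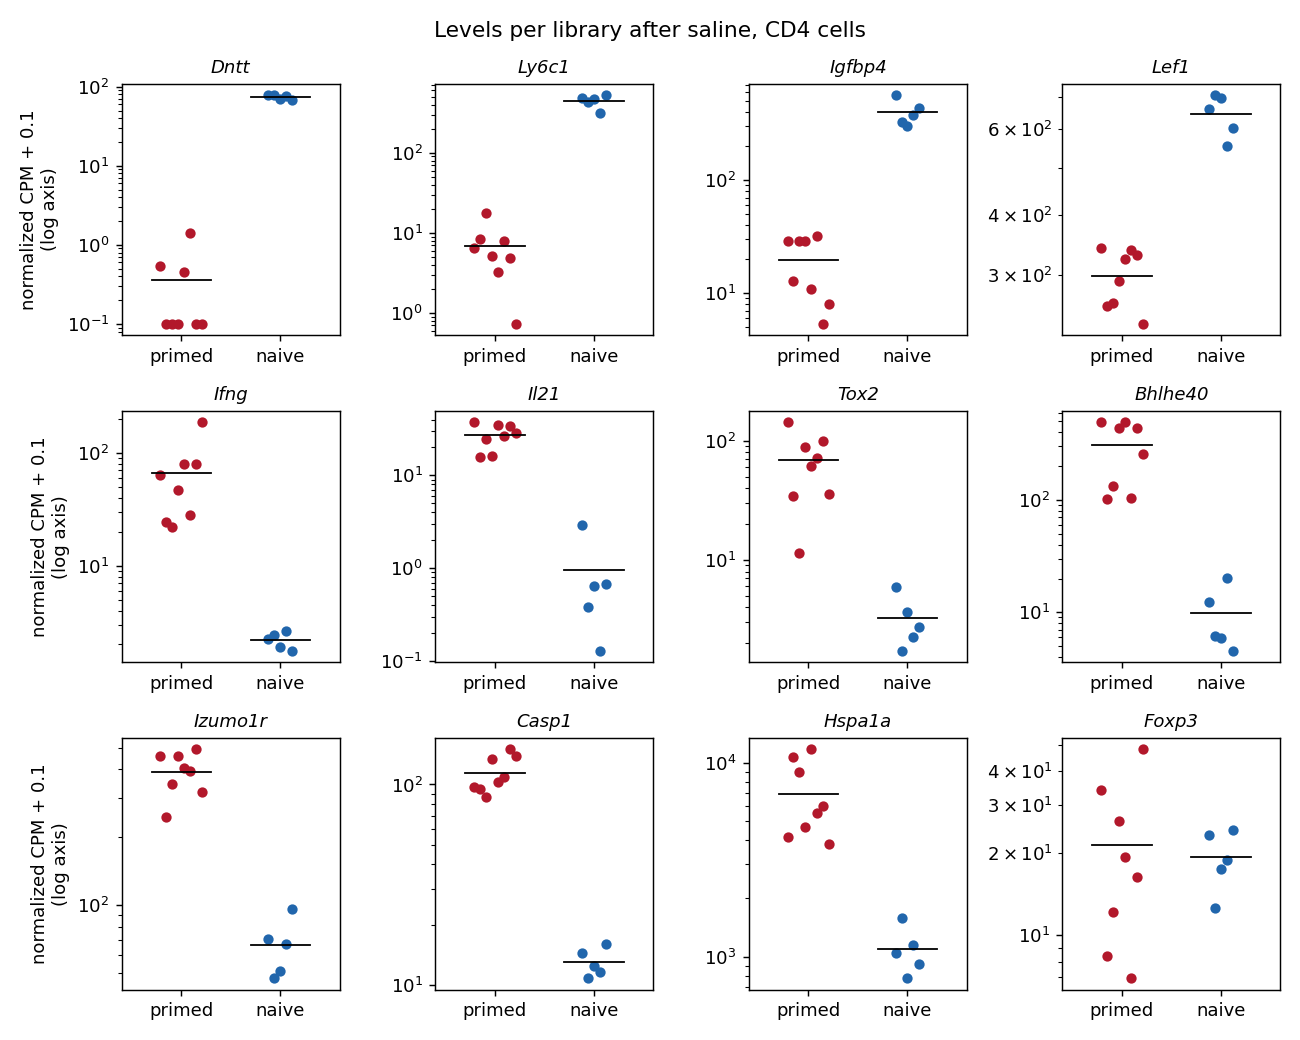
CPM plus 0.1 on a log axis for 12 genes in each primed (n = 8) and naive (n = 5) CD4 library after saline; points are libraries (red primed, blue naive) and the bar is the mean. The groups do not overlap for 11 of the genes, and they overlap for Foxp3, with means of 21.3 CPM in primed and 19.2 CPM in naive libraries.

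The plot of 12 genes by library shows the scale of these falls beside the rises described next. On the list of antigen experience, 16 of 28 genes were higher and 1 lower, with a median log2 fold change of 1.25. Itgb1, the integrin beta 1 chain used for adhesion to matrix (chr8:128685654-128733200), had 276, 678 and 1539 CPM in primed libraries, against 149, 133, 172, 151 and 172 CPM in naive libraries. Every primed library was above every naive one (log2 fold change 2.23 ± 0.39, adjusted p = 0.00158). Ahnak, a large scaffold protein that supports calcium entry in T cells, had 273, 359.6 and 677 CPM in primed libraries, against 51.5, 22.7, 50.4, 110.4 and 59.7 CPM in naive libraries, without overlap (log2 fold change 2.77 ± 0.36, adjusted p = 0.000103). Cd44, the hyaluronan receptor that marks antigen-experienced T cells, had 77.7, 187 and 307 CPM in primed libraries, against 73.4, 61.4, 57.7, 59.5 and 88.2 CPM in naive libraries. The lowest primed value lay under the highest naive one (log2 fold change 1.40 ± 0.30, adjusted p = 0.00751). The S100 calcium-binding proteins and the galectin gene Lgals1 rested in part on the library labelled OT-II 7, which held the highest values: S100a6 averaged 83.0 ± 75.6 CPM in primed and 14.0 ± 6.57 CPM in naive libraries (log2 fold change 2.57 ± 0.49, adjusted p = 0.0031), Lgals1 222 ± 163 CPM in primed and 65.9 ± 18.6 CPM in naive libraries (log2 fold change 1.75 ± 0.38, adjusted p = 0.00772) and S100a4 33.5 ± 43.2 CPM in primed and 8.73 ± 1.75 CPM in naive libraries (log2 fold change 1.94 ± 0.59, adjusted p = 0.0453). Without that library the log2 fold changes were 2.02, 1.34 and 1.09. Anxa2, a membrane-binding annexin, was higher by 1.10, and Crip1 averaged 229 ± 141 CPM in primed and 172 ± 45.2 CPM in naive libraries and was not called (adjusted p = 0.432). Over the leave-one-out fits, calls were lost for S100a4 in 6 of 13 fits, 5 of them without a naive library (highest adjusted p = 0.111) and Anxa2 in 3 of 13 fits, all of them without a naive library (highest adjusted p = 0.0686). The number of higher members was 10 to 17 over the leave-one-out fits, 6 against naive batch 1 alone and 2 against naive batch 2 alone.

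Of 10 chemokine receptors of inflamed tissue and follicles 4 were higher and none lower (median log2 fold change 1.83). Cxcr6, whose ligand CXCL16 is made in peripheral tissue and by antigen-presenting cells, had 19.3, 74.2 and 298 CPM in primed libraries, against 9.50, 9.33, 6.59, 9.36 and 11.8 CPM in naive libraries, without overlap (log2 fold change 3.54 ± 0.62, adjusted p = 0.0015). Cxcr3, the receptor for interferon-induced chemokines, had 44.9, 119 and 279 CPM in primed libraries, against 32.4, 20.7, 27.9, 16.1 and 30.4 CPM in naive libraries. Its groups did not overlap either (log2 fold change 2.40 ± 0.46, adjusted p = 0.00338). Of 20 integrin and homing genes 3 were higher and 5 lower, with a median of -0.17. The higher ones were Itga1 (3.35), Gpr15 (2.80) and Ccr4 (1.57), and the lower ones Itgam (-1.84), Itgb3 (-1.83), Itga4 (-1.38), Cxcr4 (-1.31) and Selplg (-0.78). With 1 library left out, the call was lost for Itga1 in 5 of 13 fits, 4 of them without a naive library (highest adjusted p = 0.0871), Gpr15 in 9 of 13 fits, 3 of them without a naive library (highest adjusted p = 0.109), Ccr4 in 9 of 13 fits, 4 of them without a naive library (highest adjusted p = 0.109) and Itgam in 6 of 13 fits, 3 of them without a naive library (highest adjusted p = 0.119). Higher members of this list numbered 0 to 3 over the leave-one-out fits.

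Most cytokine genes tested were higher in primed cells. Of 17 cytokine genes 10 were higher and none lower, with a median log2 fold change of 2.23. Ifng, the gene of interferon gamma (chr10:118441046-118445892), had 22.1, 55.5 and 188 CPM in primed libraries, against 2.15, 2.34, 1.81, 2.54 and 1.65 CPM in naive libraries. The lowest primed library was many times the highest naive one (log2 fold change 4.98 ± 0.56, adjusted p = 3.05e-05). Il21, the cytokine by which follicular helper cells drive B cells (chr3:37222759-37232636), had 15.7, 27.4 and 37.3 CPM in primed libraries, against 2.84, 0.284, 0.545, 0.0279 and 0.579 CPM in naive libraries, without overlap (log2 fold change 4.97 ± 0.73, adjusted p = 0.000362). Tnf had 46.5, 100.4 and 156 CPM in primed libraries, against 26.3, 23.8, 20.4, 34.5 and 24.4 CPM in naive libraries, also apart (log2 fold change 1.93 ± 0.24, adjusted p = 8.24e-05). Tnfsf14, the gene of the costimulatory ligand LIGHT, was higher by 3.24 on the log2 scale, and Tnfsf8, the CD30 ligand, by 1.95. Il4, the cytokine of T helper 2 and follicular helper cells, averaged 3.71 ± 1.82 CPM in primed and 0.373 ± 0.245 CPM in naive libraries (log2 fold change 3.31 ± 0.67, adjusted p = 0.00458), and Il2, the T cell growth factor, averaged 4.55 ± 2.04 CPM in primed and 0.596 ± 0.553 CPM in naive libraries (log2 fold change 2.93 ± 0.63, adjusted p = 0.00713). Csf2, the gene of GM-CSF, was low throughout, with 0, 1.35 and 5.84 CPM in primed libraries, against 0.0588, 0, 0, 0.223 and 0 CPM in naive libraries, and the groups overlapped (log2 fold change 5.25 ± 1.41, adjusted p = 0.0259). In fits without 1 library the call ended for Csf2 in 4 of 13 fits, all of them without a naive library (highest adjusted p = 0.0667), Csf1 without naive batch 1 library 2 or naive batch 1 library 3 (highest adjusted p = 0.0557) and Tnfsf11 in 3 of 13 fits, all of them without a naive library (highest adjusted p = 0.0586). The number of higher members was 7 to 11 over the leave-one-out fits. Cd40lg, the helper ligand for B cells, was not called (log2 fold change 0.02).

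By helper fate, 6 of 14 T helper 1 genes were higher and 1 lower (median 0.95). Tbx21, the gene of T-bet, had 21.4, 41.9 and 122 CPM in primed libraries, against 9.91, 7.20, 9.44, 11.1 and 8.60 CPM in naive libraries. The groups did not overlap (log2 fold change 2.79 ± 0.48, adjusted p = 0.0013). The IL-12 and IL-18 receptor chains Il12rb2 (3.82) and Il18rap (2.86) were higher, and the kinase gene Txk (-1.51) was the lower member. Of 7 T helper 2 genes 2 were higher and 1 lower (median 0.22). The lower one was Il4ra, the IL-4 receptor chain, with 66.0, 152 and 177 CPM in primed libraries, against 567, 436, 482, 514 and 588 CPM in naive libraries, without overlap (log2 fold change -1.88 ± 0.20, adjusted p = 2.46e-05). Nfil3 (1.41) was higher, and Gata3, the defining factor, averaged 141 ± 32.8 CPM in primed and 96.4 ± 15.8 CPM in naive libraries (adjusted p = 0.0685). Of 11 T helper 17 genes 2 were higher, Il21 and Batf, and none lower (median 0.62). Leaving out 1 library at a time ended the call of Il12rb2 in 6 of 13 fits, 4 of them without a naive library (highest adjusted p = 0.0955) and Nfil3 in 11 of 13 fits, 5 of them without a naive library (highest adjusted p = 0.125). Higher T helper 2 members numbered 1 to 3 over the leave-one-out fits.

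Of 17 follicular helper genes 10 were higher and none lower, with a median log2 fold change of 2.21. Tox2, a factor of follicular helper cells (chr2:163203125-163324170), had 11.4, 67.0 and 143 CPM in primed libraries, against 5.82, 1.62, 3.53, 2.15 and 2.62 CPM in naive libraries. No primed library overlapped a naive one (log2 fold change 4.44 ± 0.57, adjusted p = 9.69e-05). Sostdc1, a secreted antagonist of BMP and Wnt signals, had 22.2, 66.9 and 78.4 CPM in primed libraries, against 6.91, 2.02, 1.05, 0.752 and 4.39 CPM in naive libraries, also apart (log2 fold change 4.26 ± 0.54, adjusted p = 9.4e-05). Maf, a factor that promotes Il4 and Il21 transcription, had 32.4, 59.0 and 73.8 CPM in primed libraries, against 9.44, 5.23, 7.15, 2.56 and 5.37 CPM in naive libraries, without overlap (log2 fold change 3.23 ± 0.32, adjusted p = 1.13e-05). Icos, the costimulator these cells need, had 143, 268 and 371 CPM in primed libraries, against 59.2, 48.8, 55.6, 37.0 and 43.9 CPM in naive libraries. All primed libraries again lay above all naive ones (log2 fold change 2.40 ± 0.27, adjusted p = 3.11e-05). Cxcr5, the receptor that leads cells into follicles, had 41.9, 119 and 181 CPM in primed libraries, against 11.0, 5.32, 8.81, 37.6 and 11.1 CPM in naive libraries, with the highest naive value in batch 2 library 1 (log2 fold change 2.95 ± 0.47, adjusted p = 0.000784). Bcl6, the defining repressor, averaged 32.7 ± 11.3 CPM in primed and 23.4 ± 10.5 CPM in naive libraries and was not called (log2 fold change 0.48 ± 0.31, adjusted p = 0.33); against naive batch 2 alone its log2 fold change was -0.10. B cells express Cxcr5 and Bcl6 too. Of 15 B cell markers tested 1 was higher, Ebf1 (2.15), and none lower (median 0.87), and their summed level was 760.0 to 2950.3 CPM in primed and 284 to 3184 CPM in naive libraries (two-sided exact permutation test p = 0.166, adjusted p = 0.388 over 14 totals), the highest in naive batch 2 library 1. Without that naive library 11 of the markers were higher and the log2 fold change of Cxcr5 was 3.65. The B cell gene Ms4a1, which encodes CD20, had 9.77, 59.7 and 102 CPM in primed libraries, against 17.3, 6.42, 5.60, 132 and 33.4 CPM in naive libraries, so that it was at 0 in no library. Over the leave-one-out fits, calls were lost for Ebf1 in 10 of 13 fits, 4 of them without a naive library (highest adjusted p = 0.122). The part of B cell transcripts in the follicular helper genes was not tested.

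**Figure D4:**
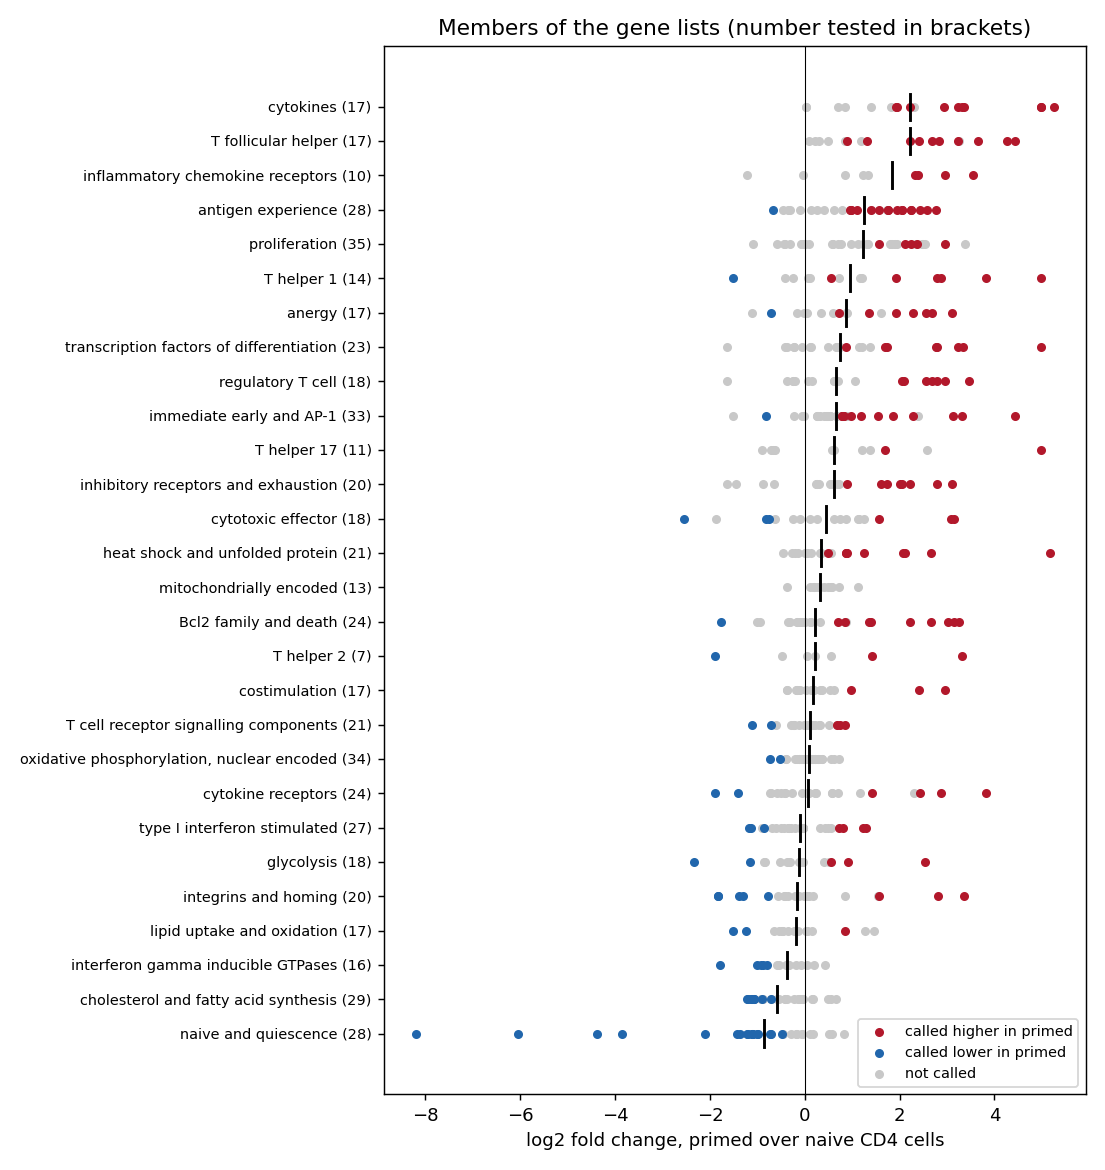
Log2 fold change of primed over naive CD4 cells for each tested member of 28 gene lists; the black bar is the list's median, and members are drawn red where higher, blue where lower and grey where not called. The medians of cytokines (2.23) and follicular helper genes (2.21) lie farthest right and that of naive and quiescence genes (-0.86) farthest left.

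The plot of gene lists sets the medians side by side. Of 18 regulatory T cell genes 7 were higher, all 7 beyond 2-fold, and none lower (median 0.67). Foxp3 itself had 6.85, 17.8 and 48.0 CPM in primed libraries, against 23.1, 12.5, 17.4, 18.8 and 24.3 CPM in naive libraries, which overlapped (log2 fold change 0.15 ± 0.41, adjusted p = 0.845). Izumo1r, the gene of folate receptor 4 (chr9:14885814-14903949), had 247, 399.8 and 491 CPM in primed libraries, against 70.5, 47.1, 50.9, 66.9 and 96.2 CPM in naive libraries. The groups were apart (log2 fold change 2.55 ± 0.22, adjusted p = 4.87e-06). Ctla4, which competes with CD28 for its ligands, had 57.4, 148 and 209.8 CPM in primed libraries, against 23.6, 15.9, 22.1, 12.8 and 20.4 CPM in naive libraries (log2 fold change 2.78 ± 0.34, adjusted p = 7.06e-05). Nrp1, a semaphorin receptor of regulatory and anergic cells, had 73.1, 179 and 302 CPM in primed libraries, against 23.6, 22.2, 32.0, 31.5 and 35.3 CPM in naive libraries (log2 fold change 2.68 ± 0.35, adjusted p = 0.000117). In both, every primed library exceeded every naive one. The costimulator gene Tnfrsf4 (2.95), encoding OX40, the cytokine subunit Ebi3 (3.47), the factor Ikzf2 (2.09) and Capg (2.04) were the other higher members.

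Of 20 genes of inhibitory receptors and exhaustion 8 were higher and none lower (median 0.61). Pdcd1, the gene of PD-1, had 41.6, 83.8 and 130.2 CPM in primed libraries, against 29.8, 14.1, 12.5, 12.1 and 29.9 CPM in naive libraries, and no libraries of the groups overlapped (log2 fold change 2.06 ± 0.33, adjusted p = 0.000786). Lag3, a receptor for MHC class II, had 1.45, 8.38 and 12.9 CPM in primed libraries, against 1.21, 0.869, 1.24, 0.641 and 0.457 CPM in naive libraries, close at the edges but without overlap (log2 fold change 3.11 ± 0.60, adjusted p = 0.00342). Tigit, a receptor for CD155, averaged 13.0 ± 6.14 CPM in primed and 3.25 ± 1.89 CPM in naive libraries (log2 fold change 2.00 ± 0.48, adjusted p = 0.0135). Tox (0.24) and Havcr2 (0.73), which mark exhausted cells, were not called. Of 17 anergy genes 7 were higher and 1 lower (median 0.87). Nt5e, the gene of CD73, had 52.8, 64.1 and 86.9 CPM in primed libraries, against 25.6, 13.3, 14.7, 17.1 and 15.7 CPM in naive libraries, without overlap (log2 fold change 1.92 ± 0.20, adjusted p = 1.97e-05). Rgs1, a brake on chemokine receptor signals, was higher by 2.29, the ligase gene Itch (-0.72) was the lower member, and Cblb (0.04), Egr2 (0.90) and Egr3 (0.87) were not called. With 1 library left out, the call was lost for Itch without naive batch 2 library 1 or naive batch 2 library 2 (highest adjusted p = 0.0572). Higher members numbered 7 to 9 and 6 to 8 over the leave-one-out fits, and 2 and 4 against naive batch 2 alone.

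Cytotoxic genes went both ways, with 3 of 18 higher and 3 lower (median 0.44). The higher ones were Klrk1 (3.15), Klrc1 (3.07) and Ctsw (1.58). Prf1, the gene of perforin, had 1.29, 4.53 and 18.5 CPM in primed libraries, against 50.3, 42.3, 42.1, 35.9 and 22.6 CPM in naive libraries. The primed libraries all lay under the naive ones (log2 fold change -2.54 ± 0.49, adjusted p = 0.00327); with the 7 primed libraries taken as labelled OT-II, 1 of which had more Cd8a than Cd4 counts, the log2 fold change was 0.93. The granzyme gene Gzmb averaged 5.38 ± 4.41 CPM in primed and 2.48 ± 1.34 CPM in naive libraries and was not called (adjusted p = 0.332). In fits without 1 library the call ended for Klrc1 in 4 of 13 fits, all of them without a naive library (highest adjusted p = 0.0848), Ctsw in 6 of 13 fits, 5 of them without a naive library (highest adjusted p = 0.0931), Lamp1 in 9 of 13 fits, 5 of them without a naive library (highest adjusted p = 0.095) and Ctsd in 11 of 13 fits, 5 of them without a naive library (highest adjusted p = 0.117). Cytotoxic genes called higher numbered 1 to 3 and those called lower 1 to 4 over these fits. Of 6 CD8 lineage markers other than Cd8a and Cd8b1, Nkg7 (2.05) and Runx3 (0.88) were higher and none lower (median 0.94). Leaving out 1 library at a time ended the call of Nkg7 in 5 of 13 fits, all of them without a naive library (highest adjusted p = 0.073). The summed level of the list with Cd8a and Cd8b1 was 178 to 636 CPM in primed and 172 to 225 CPM in naive libraries, given as a description with no test. Of 10 NK and innate lymphoid markers none was called by edgeR, with 0 at an unadjusted p under 0.05 and 0 by DESeq2 (median 0.16), and their summed level was 19.2 to 125 CPM in primed and 21.8 to 59.4 CPM in naive libraries, the highest in the library labelled OT-II 7 (two-sided exact permutation test p = 0.848, adjusted p = 0.866). The defining NK gene Ncr1 had 0, 0.622 and 1.56 CPM in primed libraries, against 2.62, 2.17, 1.33, 4.29 and 0 CPM in naive libraries. The part of other cells in the cytotoxic genes was not tested.

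Among 23 transcription factors of differentiation 8 were higher and none lower (median 0.74). Bhlhe40, which sustains cytokine production in T cells (chr6:108660629-108666925), had 102, 346 and 492 CPM in primed libraries, against 12.3, 6.05, 5.76, 20.1 and 4.42 CPM in naive libraries. The groups were far apart (log2 fold change 4.98 ± 0.58, adjusted p = 4.8e-05). Runx2, a Runt-family factor, had 13.9, 28.6 and 50.1 CPM in primed libraries, against 2.51, 0.886, 2.99, 3.34 and 5.00 CPM in naive libraries, also apart (log2 fold change 3.34 ± 0.46, adjusted p = 0.00021). Hopx, a regulator of effector T cell survival, averaged 71.1 ± 17.7 CPM in primed and 10.5 ± 2.99 CPM in naive libraries (log2 fold change 2.76 ± 0.24, adjusted p = 4.87e-06), and Batf, an AP-1 partner in helper differentiation, averaged 177 ± 50.8 CPM in primed and 55.1 ± 9.17 CPM in naive libraries (log2 fold change 1.68 ± 0.20, adjusted p = 5.95e-05). Of 24 cytokine receptors 4 were higher and 2 lower (median 0.08), among them Il2rb, the chain shared by the IL-2 and IL-15 receptors (2.44), and Ifngr2, a chain of the interferon gamma receptor (-1.41). Of 17 costimulation genes 3 were higher, Tnfrsf4, Icos and Cd82 (0.98), and none lower (median 0.18). Of 21 components of T cell receptor signalling 3 were higher and 2 lower (median 0.11), among them the phosphatase gene Ptpn6 (0.75) and Rasgrp1 (-0.70), an activator of Ras. Over the leave-one-out fits 1 to 4 of these components were higher and 1 to 2 lower. The share of all genes tested was 6.6% higher and 4.25% lower, and nothing is read from so few calls. Over the leave-one-out fits, calls were lost for Cd82 in 4 of 13 fits, all of them without a naive library (highest adjusted p = 0.0692), Ptpn6 in 3 of 13 fits, all of them without a naive library (highest adjusted p = 0.0716) and Rasgrp1 without naive batch 2 library 1 or naive batch 2 library 2 (highest adjusted p = 0.0824).

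Part of the heat shock genes were higher in the primed libraries, whose cells had been spun and frozen after the sort. Of 21 heat shock and unfolded protein genes 9 were higher and none lower (median 0.34), and their summed level was 31352 ± 7813 CPM in primed and 14209 ± 1530.1 CPM in naive libraries (two-sided exact permutation test p = 0.00155, adjusted p = 0.0181). Hspa1a, an inducible HSP70 (chr17:34969190-34972156), had 3837, 5727 and 11720.3 CPM in primed libraries, against 1045, 1589.9, 776, 1155 and 916 CPM in naive libraries. Every primed library was above every naive one (log2 fold change 2.66 ± 0.32, adjusted p = 6.14e-05). Hspa1b had 4646, 9052 and 16039 CPM in primed libraries, against 2291, 3422, 1454, 2045 and 1932 CPM in naive libraries, likewise apart (log2 fold change 2.10 ± 0.30, adjusted p = 0.000295), but Hspa1a and Hspa1b are near-identical and the counting could split reads between them. Hspb1, a small heat shock protein, had 1.62, 5.15 and 66.5 CPM in primed libraries, against 0.215, 0.518, 0.218, 1.03 and 0 CPM in naive libraries, highest in the library labelled OT-II 1 and without overlap (log2 fold change 5.17 ± 1.13, adjusted p = 0.00783). Bag3, a partner of HSP70, averaged 39.3 ± 12.3 CPM in primed and 9.30 ± 2.47 CPM in naive libraries (log2 fold change 2.08 ± 0.27, adjusted p = 0.000115), and Hspe1, a mitochondrial chaperonin, averaged 181 ± 53.9 CPM in primed and 98.9 ± 13.4 CPM in naive libraries (log2 fold change 0.87 ± 0.20, adjusted p = 0.0119). The endoplasmic reticulum chaperones Hspa5 (0.56) and Calr (-0.45) were not called. Higher members numbered 7 to 10 over the leave-one-out fits.

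Heat shock factor binds series of NGAAN units in alternating orientation, and the motif searched for was a single pair of such units. The 250 bases before the annotated start are shown for the 4 higher members that held such a pair, from RefSeq on GRCm38.p6, along the strand of the gene. Capitals mark TTCNNGAA or GAANNTTC, each of which reads the same on both strands.
Hspa1a (chr17:34972157-34972406, minus strand): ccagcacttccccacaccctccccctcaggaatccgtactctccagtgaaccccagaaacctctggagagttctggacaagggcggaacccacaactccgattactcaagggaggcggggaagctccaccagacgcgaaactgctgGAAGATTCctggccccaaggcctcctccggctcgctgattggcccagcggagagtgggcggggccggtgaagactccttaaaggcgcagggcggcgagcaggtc
Hspa1b (chr17:34959239-34959488, minus strand): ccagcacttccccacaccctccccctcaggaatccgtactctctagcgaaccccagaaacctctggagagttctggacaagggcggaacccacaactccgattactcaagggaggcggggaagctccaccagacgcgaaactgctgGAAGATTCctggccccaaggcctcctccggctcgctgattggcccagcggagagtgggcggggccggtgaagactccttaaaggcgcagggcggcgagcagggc
Hspb1 (chr5:135887669-135887918, plus strand): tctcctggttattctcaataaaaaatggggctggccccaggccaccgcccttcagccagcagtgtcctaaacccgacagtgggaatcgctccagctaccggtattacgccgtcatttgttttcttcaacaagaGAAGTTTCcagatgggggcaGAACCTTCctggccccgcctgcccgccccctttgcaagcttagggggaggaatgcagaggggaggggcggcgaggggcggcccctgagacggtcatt
Hspe1 (chr1:55087898-55088147, plus strand): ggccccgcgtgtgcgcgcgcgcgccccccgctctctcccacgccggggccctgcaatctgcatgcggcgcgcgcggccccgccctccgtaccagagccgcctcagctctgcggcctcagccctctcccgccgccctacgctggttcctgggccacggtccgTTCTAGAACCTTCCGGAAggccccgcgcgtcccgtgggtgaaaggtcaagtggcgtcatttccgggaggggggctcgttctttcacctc
The promoters of Hspa1a and Hspa1b differed at 3 of 250 bases. They held 1 match each, that of Hspb1 held 2 and that of Hspe1 3, where matches overlap. The stretch of Hspe1 overlaps the one before a start of Hspd1 (chr1:55087933-55088182, minus strand), which also held 3 matches. Hspd1 was not called (log2 fold change 0.05). Of the 9 higher members 6 were in the RefSeq table and 4 of these held a motif; of the 12 members that were not called 12 were in it and 4 held a motif. Among 32851 promoters of this length 7.17% held TTCNNGAA, 6.69% held GAANNTTC and 12.8% held either. A match marks a single pair of units and describes the sequence only.

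Of 33 immediate early and AP-1 genes 12 were higher and 1 lower (median 0.67), and their summed level was 21723 ± 4739.9 CPM in primed and 13760.4 ± 2508 CPM in naive libraries (two-sided exact permutation test p = 0.00388, adjusted p = 0.0181). Fos, an AP-1 subunit, had 1379.9, 2233 and 4265 CPM in primed libraries, against 386, 489.8, 301, 1445 and 707 CPM in naive libraries. Naive batch 2 library 1 lay among the primed ones (log2 fold change 1.86 ± 0.36, adjusted p = 0.00366). Klf4, a factor that restrains growth, had 15.1, 44.0 and 69.7 CPM in primed libraries, against 4.74, 3.08, 4.86, 6.60 and 5.12 CPM in naive libraries, without overlap (log2 fold change 3.13 ± 0.44, adjusted p = 0.000216). The AP-1 genes Atf3 (4.43) and Fosb (3.31) were higher too, Dusp5 (-0.82), a phosphatase of ERK, was lower, and Egr1 (0.53), Nr4a1 (0.53) and Cd69 (-0.01), which follow recent receptor signals, were not called. With 1 library left out, the call was lost for Atf3 in 10 of 13 fits, 5 of them without a naive library (highest adjusted p = 0.109) and Dusp5 without naive batch 1 library 1 or naive batch 1 library 3 (highest adjusted p = 0.0647). Higher members numbered 9 to 13 over the leave-one-out fits and 1 against naive batch 2 alone. Handling and immunization cannot be told apart for either list.

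Of 35 proliferation genes 5 were higher and none lower, with a median of 1.23, beside 6.6% higher and 4.25% lower over all genes tested. Mki67, the gene of Ki-67, had 7.20, 29.4 and 83.0 CPM in primed libraries, against 5.39, 0.602, 1.57, 7.27 and 7.50 CPM in naive libraries. The groups met at their edges (log2 fold change 2.95 ± 0.70, adjusted p = 0.0127). Tk1, which salvages thymidine, averaged 15.6 ± 7.54 CPM in primed and 3.03 ± 1.39 CPM in naive libraries (log2 fold change 2.36 ± 0.43, adjusted p = 0.00201), and Birc5 (2.25), Top2a (2.11) and Tyms (1.56), of mitosis, DNA untangling and thymidylate synthesis, were the others, while the replication genes Pcna (-0.43) and Mcm2 (-0.41) were not called. In fits without 1 library the call ended for Birc5 in 6 of 13 fits, 4 of them without a naive library (highest adjusted p = 0.106) and Tyms in 4 of 13 fits, all of them without a naive library (highest adjusted p = 0.065). Higher members numbered 3 to 6 over the leave-one-out fits and 0 against naive batch 2 alone.

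Of 24 genes of the Bcl2 family and cell death 9 were higher and 1 lower (median 0.22). Casp1, the inflammasome caspase (chr9:5298517-5307265), had 86.8, 106 and 149.5 CPM in primed libraries, against 14.4, 10.7, 12.3, 11.5 and 16.0 CPM in naive libraries. The groups were narrow and far apart (log2 fold change 3.14 ± 0.20, adjusted p = 4.17e-07). Casp4, which senses lipopolysaccharide in the cytosol (chr9:5308828-5336783), had 30.9, 38.3 and 55.9 CPM in primed libraries, against 3.45, 4.43, 1.09, 4.15 and 12.0 CPM in naive libraries, without overlap (log2 fold change 3.03 ± 0.43, adjusted p = 0.000276). Bcl2a1d averaged 50.2 ± 12.6 CPM in primed and 5.30 ± 1.64 CPM in naive libraries (log2 fold change 3.24 ± 0.27, adjusted p = 3.35e-06) and Bcl2a1b 114 ± 24.2 CPM in primed and 18.0 ± 3.88 CPM in naive libraries (log2 fold change 2.67 ± 0.20, adjusted p = 1.75e-06); these prosurvival paralogs are near-identical and may share counts. Bcl2l11, the gene of the death factor BIM, had 11.2, 23.9 and 43.3 CPM in primed libraries, against 65.3, 91.5, 80.3, 98.8 and 104 CPM in naive libraries. All primed libraries were under all naive ones (log2 fold change -1.76 ± 0.26, adjusted p = 0.000336). The survival genes Bcl2 (0.01) and Mcl1 (-0.31) were not called.

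Of 29 cholesterol and fatty acid synthesis genes 8 were lower and none higher (median -0.59). Dhcr7, the last enzyme of cholesterol synthesis, averaged 22.9 ± 6.62 CPM in primed and 52.4 ± 8.58 CPM in naive libraries (log2 fold change -1.19 ± 0.22, adjusted p = 0.00203), and Srebf2, the master regulator of the pathway, averaged 166 ± 60.5 CPM in primed and 349 ± 53.7 CPM in naive libraries (log2 fold change -1.07 ± 0.25, adjusted p = 0.0116). Leaving out 1 library at a time ended the call of Idi1 in 7 of 13 fits, 5 of them without a naive library (highest adjusted p = 0.112) and Sqle in 3 of 13 fits, all of them without a naive library (highest adjusted p = 0.0808). Lower members numbered 2 to 11 over the leave-one-out fits. Of 16 interferon gamma inducible GTPase genes 5 were lower and none higher (median -0.38). Tgtp1, a GTPase of cell-autonomous defence, had 81.3, 107 and 246 CPM in primed libraries, against 485, 502, 515, 384 and 447 CPM in naive libraries, without overlap (log2 fold change -1.79 ± 0.26, adjusted p = 0.000272). Tgtp2 (-0.92) is near-identical to it, and Igtp (-0.87) and Irgm2 (-1.01) overlap in the annotation, so reads may be split within each pair. Type I interferon stimulated genes went both ways, with 4 of 27 higher and 3 lower (median -0.10): Ifi27l2a (1.28) and Oas1a (1.23) were among the higher, Oasl1 (-1.14) and Ifit2 (-1.18) among the lower. Over the leave-one-out fits, calls were lost for Ifit2 in 6 of 13 fits, 4 of them without a naive library (highest adjusted p = 0.0757). Of the type I interferon stimulated genes 2 to 4 were higher and 1 to 4 lower in these fits.

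In energy metabolism, Pdk1 (chr2:71873224-71903858) encodes a kinase that inhibits pyruvate dehydrogenase. It had 40.6, 84.9 and 161 CPM in primed libraries, against 427, 425, 427, 476 and 491 CPM in naive libraries. The groups were far apart (log2 fold change -2.34 ± 0.23, adjusted p = 1.23e-05). Of 18 glycolysis genes 3 were higher and 2 lower (median -0.11), with the inducible hexokinase Hk2 at 2.54 and the lactate dehydrogenase Ldhb at -1.16. Of 34 nuclear-encoded oxidative phosphorylation genes Sdha (-0.73) and Atp5b (-0.51) were lower and none higher (median 0.08). Of 17 lipid uptake and oxidation genes Etfb (0.85) was higher and Lipa (-1.51) and Acsl3 (-1.23) were lower (median -0.19). Beside 6.6% higher and 4.25% lower over all genes tested, the few calls in these metabolic lists are not read as a result about the lists. None of 13 mitochondrially encoded genes was called by edgeR, with 1 at an unadjusted p under 0.05 and 1 by DESeq2 (median 0.32), and their summed level was 5734 to 26543 CPM in primed and 7019 to 18502 CPM in naive libraries (two-sided exact permutation test p = 0.524, adjusted p = 0.631). With 1 library left out, the call was lost for Sdha without naive batch 1 library 1 or naive batch 1 library 3 (highest adjusted p = 0.0558), Atp5b without naive batch 1 library 3 or naive batch 2 library 2 (highest adjusted p = 0.0612), Etfb without naive batch 2 library 2 (highest adjusted p = 0.051) and Acsl3 in 9 of 13 fits, 5 of them without a naive library (highest adjusted p = 0.101).

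Markers of other cells are counted next, beside 6.6% higher and 4.25% lower over all genes tested, and nothing is read from single calls in lists this short. Of 19 myeloid and dendritic markers Itgam was lower (median -0.31), and their summed level was 123 to 452 CPM in primed and 171 to 755 CPM in naive libraries (two-sided exact permutation test p = 0.541, adjusted p = 0.631). Of 9 erythroid and platelet markers Car2 (-2.69) was lower (median -0.56), with a summed level of 31.7 to 667 CPM in primed and 149.9 to 1182 CPM in naive libraries (two-sided exact permutation test p = 0.504, adjusted p = 0.631). Of 7 stroma and endothelium markers Pecam1 (-0.56) was lower (median 1.09), and their sum was lower in primed cells, at 106 to 207 CPM in primed and 179 to 291 CPM in naive libraries (two-sided exact permutation test p = 0.00311, adjusted p = 0.0181). The sum and the median differ in sign: 4 of the 7 members had log2 fold changes above 0, and Pecam1, which holds most of the summed CPM, averaged 154 ± 30.3 CPM in primed and 226 ± 40.5 CPM in naive libraries. None of 3 gamma delta T cell markers was called by edgeR, with 0 at an unadjusted p under 0.05 and 0 by DESeq2 (median 1.04, two-sided exact permutation test p = 0.12, adjusted p = 0.337 for their sum). None of the 5 CD4 lineage markers other than Cd4 was called by edgeR, with 1 at an unadjusted p under 0.05 and 1 by DESeq2 (median -0.04); with Cd4, the list summed to 1492 ± 437 CPM in primed and 1456 ± 71.2 CPM in naive libraries, given as a description. Of 7 sex-linked genes Ddx3x (-0.76) was lower (median -0.37). In fits without 1 library the call ended for Pecam1 in 9 of 13 fits, 4 of them without a naive library (highest adjusted p = 0.13) and Ddx3x without naive batch 2 library 1 or naive batch 2 library 2 (highest adjusted p = 0.0639).

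The largest rises lay in a block of paralogous genes on chromosome 14 (chr14:3332627-6412482), singled out after their values were seen. Of the 12 largest rises with at least 10 CPM in primed cells 10 lie there. The tables hold 84 genes of the block, of which 27 were tested, 25 were higher, 22 of them beyond 2-fold, and none was lower. Over all genes tested 6.6% were higher and 4.25% lower. The limits of the block were set by these rises. Its tested genes were at or near 0 in naive libraries, so they passed the filter on low counts through the primed group. The tally was thus largely fixed in advance and is given as a description. Gm3252 (chr14:4726775-4747493) had 3.21, 13.6 and 36.7 CPM in primed libraries and 0 in every naive library, at least 1106-fold higher against a floor of 3 counts over the naive group. Gm3591 had 5.77, 12.5 and 23.5 CPM in primed libraries, against 0, 0.0501, 0, 0 and 0 CPM in naive libraries, far apart (log2 fold change 9.70 ± 0.86, adjusted p = 4.87e-06). The copies are near-identical and the counting could split reads among them, so single members are uncertain. The sum over the 22 members called beyond 2-fold had 86.1, 274 and 416 CPM as the lowest, median and highest primed library. In naive libraries it had 0.487, 2.55 and 3.39 CPM, a distance set by the choice of these members from the same libraries. The same sum is given next for other sets of libraries, of which the therapeutic CD4 set includes the primed ones. It was 37.5 to 579.9 CPM over the 26 therapeutic CD4 libraries of any treatment and 1.17 to 16.9 CPM over the 27 therapeutic CD8 libraries. In the prophylactic experiment it was 2.86 to 6.27 CPM in CD4 cells after ovalbumin (OVA), 11.3 to 44.7 CPM in CD4 cells after pGal-OVA, a glycosylated form of it, and 0.0870 to 3.95 CPM in CD8 cells of any treatment. The other two of the 12 rises were Npas2, a circadian clock factor, with 2.71, 14.8 and 22.3 CPM in primed libraries, against 0.372, 0, 0, 0 and 0 CPM in naive libraries (log2 fold change 7.32 ± 1.21, adjusted p = 0.000983), and Sspo, the gene of SCO-spondin, with 0.402, 5.62 and 56.5 CPM in primed libraries, against 0, 0.117, 0.0436, 0.0557 and 0.0610 CPM in naive libraries (log2 fold change 7.62 ± 1.35, adjusted p = 0.00178). Neither overlapped between the groups, and Sspo was highest in the library labelled OT-II 1.

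Of the 12 largest falls, 3 rested on naive batch 1. Gm17571 had 0, 0.0933 and 1.25 CPM in primed libraries, against 2061, 78.4, 2.51, 0.195 and 0.549 CPM in naive libraries (log2 fold change -10.91 ± 1.94, adjusted p = 0.00195). Cd80, a ligand of CD28 and CTLA-4, had 0.190, 0.617 and 4.96 CPM in primed libraries, against 434, 52.5, 10.8, 2.62 and 1.71 CPM in naive libraries (log2 fold change -6.50 ± 1.22, adjusted p = 0.00281). Olfr545, an olfactory receptor gene, had 0.238, 0.417 and 1.55 CPM in primed libraries, against 48.9, 7.04, 10.1, 0.836 and 1.77 CPM in naive libraries (log2 fold change -4.36 ± 0.83, adjusted p = 0.00294). In all 3, naive batch 1 library 1 was highest by far and the groups overlapped. Without that library the log2 fold changes were -6.51, -3.92 and -2.88, and against naive batch 2 alone -0.78, -0.97 and -0.99 (adjusted p = 0.838, 0.715 and 0.641). Gm17571 did not pass the filter on low counts, and so was not tested, without the primed library labelled OT-II 1. The other falls were present in every naive library: Pdlim4, a cytoskeletal adaptor, had 0, 1.53 and 3.63 CPM in primed libraries, against 48.1, 37.0, 42.7, 32.7 and 40.0 CPM in naive libraries (log2 fold change -4.75 ± 0.62, adjusted p = 0.000116), and Slc16a5, a monocarboxylate transporter, had 2.65, 13.2 and 16.6 CPM in primed libraries, against 155, 132, 142, 168 and 115 CPM in naive libraries (log2 fold change -3.68 ± 0.37, adjusted p = 1.43e-05). In both, every primed library lay under every naive one. Laptm4b (-4.38), Ampd1 (-4.43) and Kcnh3 (-4.05) stood beside Dntt, Ly6c1, Igfbp4 and Ccr9 among these falls.

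The same contrast was made in CD8 cells, with 7 primed and 5 naive saline libraries that differ in handling in the same way. Of 13864 genes tested it called 1820 higher (13.1%) and 1882 lower (13.6%), and beyond 2-fold 423 higher (3.05%) and 129 lower (0.93%). Of the 223 genes higher beyond 2-fold in CD4 cells, 183 were tested in CD8 cells and 133 were higher there, 81 of them beyond 2-fold; of the 52 lower ones, 47 were tested and 36 were lower, 20 of them beyond 2-fold. The difference between the CD4 and the CD8 change was called for 282 of 14719 genes (1.92%), of which 155 were larger and 127 smaller in CD4 cells. It was called in the direction of the CD4 change for 49 of the 223 and 13 of the 52 genes. Without the primed CD4 libraries labelled OT-II 1 and 7 the difference was called for 469 genes.

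**Figure D5:**
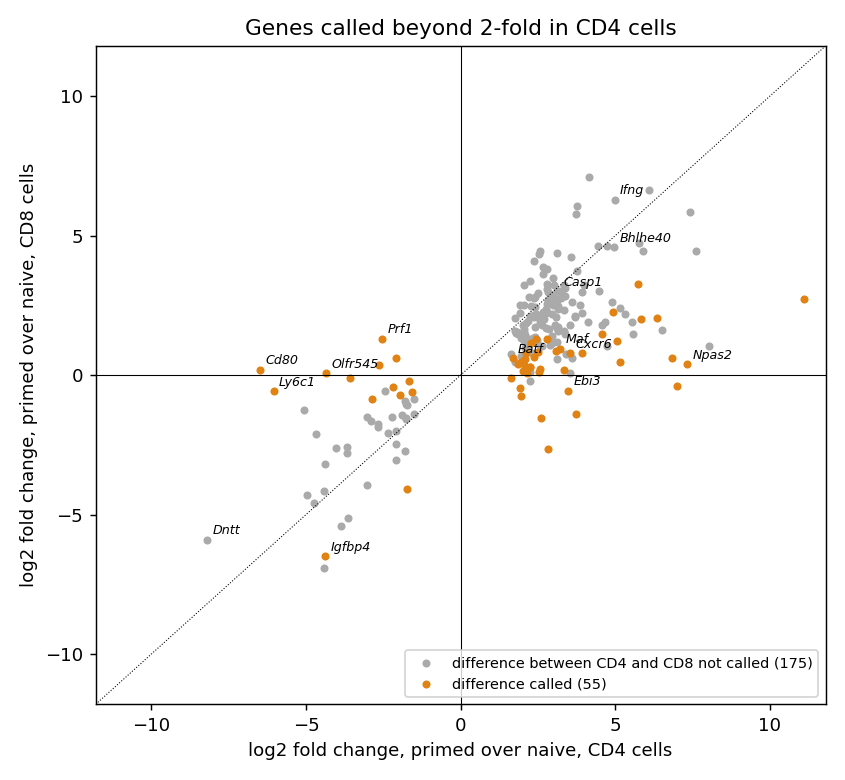
Log2 fold change of primed over naive CD4 cells (horizontal) against that of CD8 cells (vertical) for the 230 genes called beyond 2-fold in CD4 cells and tested in CD8 cells. Orange marks the 55 genes whose difference between the cell types was called and grey the other 175. Casp1 lies at 3.14 in CD4 and 3.01 in CD8 cells, and Prf1 at -2.54 and 1.30.

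The plot of CD4 against CD8 changes shows most points in the corners where both cell types changed the same way. Ly6c1 averaged 6.70 CPM in primed and 444 CPM in naive CD4 cells, and 2.26 CPM in primed and 3.36 CPM in naive CD8 cells (CD4 change minus CD8 change -5.50 ± 0.67, adjusted p = 2.16e-05). Prf1 averaged 6.64 CPM in primed and 38.6 CPM in naive CD4 cells, and 398 CPM in primed and 161 CPM in naive CD8 cells (CD4 change minus CD8 change -3.86 ± 0.58, adjusted p = 0.000236). Perforin transcripts were thus lower in primed CD4 cells and higher in primed CD8 cells than in the naive cells of each type. Maf averaged 55.9 CPM in primed and 5.95 CPM in naive CD4 cells, and 7.48 CPM in primed and 3.90 CPM in naive CD8 cells (CD4 change minus CD8 change 2.27 ± 0.37, adjusted p = 0.00054). Tnfsf8 averaged 247 CPM in primed and 63.6 CPM in naive CD4 cells, and 42.3 CPM in primed and 70.9 CPM in naive CD8 cells (CD4 change minus CD8 change 2.69 ± 0.28, adjusted p = 1.42e-06). Both had the larger change in CD4 cells, as had Cxcr6 (CD4 change minus CD8 change 2.75 ± 0.62, adjusted p = 0.0145). Lef1 and Ccr7 fell less in CD4 than in CD8 cells (CD4 change minus CD8 change 0.76 ± 0.18, adjusted p = 0.0205 for Lef1, CD4 change minus CD8 change 1.35 ± 0.31, adjusted p = 0.0175 for Ccr7). Ccr10, a skin-homing receptor, averaged 0.957 CPM in primed and 1.22 CPM in naive CD4 cells, and 25.0 CPM in primed and 0.188 CPM in naive CD8 cells (CD4 change minus CD8 change -7.41 ± 1.10, adjusted p = 0.000185). For Ifng, Bhlhe40, Casp1, Tox2, Hspa1a and Dntt the difference was not called, at -1.33, 0.39, 0.11, -0.21, 0.38 and -2.27 with an SE of 0.56, 0.65, 0.26, 0.83, 0.43 and 1.37, which does not show equal change.

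Naive CD4 cells given antigen in the prophylactic experiment stand beside these values on a common scaling of 4 groups. These were 8 primed, 4 OVA, 5 pGal-OVA and 5 saline libraries. The comparisons share the 5 naive saline libraries, and no test was made. The OVA and pGal-OVA libraries were taken as labelled OT-II. OVA batch 2 library 2 had 8237 Cd4 and 3901 Cd8a counts, and pGal-OVA batch 1 library 3 had 25172 and 4304. Cd8a averaged 30.7 ± 57.8 CPM after OVA, 18.6 ± 36.8 CPM after pGal-OVA and 5.92 ± 7.33 CPM after saline in naive cells. The part of CD8 cells in the means below was not tested. Izumo1r averaged 389 ± 81.7 CPM in primed cells given saline, 126 ± 52.3 CPM after OVA, 490.2 ± 184 CPM after pGal-OVA and 66.1 ± 19.4 CPM after saline in naive cells. Casp4 averaged 41.0 ± 8.73 CPM in primed cells given saline, 8.97 ± 3.86 CPM after OVA, 35.4 ± 8.48 CPM after pGal-OVA and 5.01 ± 4.11 CPM after saline in naive cells. Ly6c1 averaged 6.74 ± 5.15 CPM in primed cells given saline, 227 ± 125 CPM after OVA, 23.6 ± 10.2 CPM after pGal-OVA and 443 ± 79.2 CPM after saline in naive cells. In these 3 genes the level after pGal-OVA lay nearer to that of primed cells than the level after OVA did. Ifng averaged 66.2 ± 53.3 CPM in primed cells given saline, 4.16 ± 3.50 CPM after OVA, 2.68 ± 1.52 CPM after pGal-OVA and 2.09 ± 0.367 CPM after saline in naive cells. Il21 averaged 27.2 ± 8.21 CPM in primed cells given saline, 1.02 ± 0.418 CPM after OVA, 0.847 ± 0.440 CPM after pGal-OVA and 0.852 ± 1.12 CPM after saline in naive cells. Hspa1a averaged 6966 ± 3159 CPM in primed cells given saline, 1054 ± 545 CPM after OVA, 982 ± 834 CPM after pGal-OVA and 1094 ± 311 CPM after saline in naive cells. In these 3 the means of all naive groups lay far under that of primed cells. Over all 82 libraries, Igfbp4, Il4ra and Sesn1, a stress-induced sestrin, were lower and Tnfsf14 higher in each of the 53 therapeutic than in each of the 29 prophylactic libraries, whatever the cell type and treatment.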

How the data were processed

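RNA from sorted T cells was sequenced in 82 libraries. Demultiplexing with bcl2fastq and quantification with kallisto 0.46.1 against GRCm38 are given in the submitters' processing notes; the labels and headers do not say how transcripts were summed to genes. The deposited values are estimated counts per gene, which were rounded to whole numbers. Floors cover counting error only. The SE and the p-values rest on the spread between mice (primed) or pools of mice (naive).

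Gene positions were taken from GENCODE M21. Counts were filtered with filterByExpr, scaled by TMM and tested with edgeR 4.0.16 in R 4.3.3 (robust quasi-likelihood fit of the 13 libraries; glmTreat against 2-fold), with Benjamini-Hochberg adjustment over all genes tested and a threshold of 0.05. CPM and log2 fold changes, primed over naive, were computed from the deposited counts. The CD4 and CD8 changes were compared by an interaction term over all saline libraries. The labels do not say which CD4 and CD8 libraries share a mouse. All libraries were thus fitted as independent, and any such pairing was ignored in the SE and adjusted p. The SE is the log2 fold change divided by the root of F. Summed CPM of marker lists were compared by two-sided exact permutation tests over 1287 arrangements, whose smallest p is 0.000777, adjusted over 14 totals. A gene at 0 in all naive libraries was set against a floor of 3 counts over the group. Within each group, counts of no pair of libraries agreed within sampling noise (lowest chi-square per degree of freedom 37.4 over 38 pairs).

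The members, the 37 gene lists (633 genes) and the panel of 32 genes were chosen with earlier results of these data known. Genes were named as the 12 largest changes each way beyond 2-fold with at least 10 CPM in the higher group, the panel, up to 4 called members of each list and the 5 largest differences between cell types; other genes were chosen after their values were seen. Alternatives used DESeq2 1.42.0, limma 3.58.1 voom, other scalings and filters, single batches and each library left out. The fits were tested on simulated data.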

Additional observations from a re-analysis of the deposited data

Results flagged for a closer look

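Among 138 sets of libraries, 55 genes and 14 totals in primed or naive CD4 cells, 32 had 1 library farther from the rest than Dixon's 95% limit allows. Chance gives about 1 in 20, and genes of 1 library are not independent. In 4 of them, the naive values of 2610042L04Rik, Gm3591, Gm3488 and Npas2, the other 4 libraries were all at 0, so that any count stands apart and the chance rate does not apply. Values are CPM, each with the median of its group. The primed library labelled OT-II 7 was highest in Gm3252 (36.7, median 13.6), Gm3500 (38.6, median 9.50), Gm8281 (44.6, median 13.5), Kcnh3 (3.00, median 0.341), Cd80 (4.96, median 0.617), S100a4 (139, median 17.1), S100a6 (266, median 56.3), Lgals1 (613, median 168), Crip1 (555, median 193), Ifng (188, median 55.5), NK and innate lymphoid markers sum (125, median 31.9) and gamma delta T cell markers sum (37.1, median 20.1), and lowest in Satb1 (352, median 610.2). The primed library labelled OT-II 1 was highest in Sspo (56.5, median 5.62), Ly6c1 (17.6, median 5.70) and Gm17571 (1.25, median 0.0933), and the one labelled OT-II 5 in Dntt (1.31, median 0).

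Naive batch 1 library 1 was highest in 2610042L04Rik (0.0588, median 0), Gm8108 (0.176, median 0), Npas2 (0.372, median 0), Gm3005 (0.411, median 0), Olfr545 (48.9, median 7.04), Cd80 (434, median 10.8) and Gm17571 (2061, median 2.51), and naive batch 1 library 2 in Gm3591 (0.0501, median 0) and Gm3488 (0.1003, median 0). The value of 2610042L04Rik stands for 3 counts. Naive batch 2 library 1 was highest in Cxcr5 (37.6, median 11.0), B cell markers sum (3184, median 427) and gamma delta T cell markers sum (31.7, median 5.34), and naive batch 2 library 2 in Ampd1 (32.2, median 17.2), Il2 (1.56, median 0.351) and mitochondrially encoded sum (18502, median 7941).

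The CD4 and CD8 changes differed, by the edgeR test of the difference itself, for 20 of the 133 genes named by rule and for Tnfsf8. Gm3252, 2610042L04Rik, Gm3591, Gm17571 and Ccr10 were named as the 5 largest called differences, so that their flag was fixed in advance. Tnfsf8 was added after its values were seen. The difference was called for 1.92% of all genes tested, and the 133 were chosen in part for large changes. The log2 change was larger in CD4 than in CD8 cells, or fell less, for Gm3252 (12.34), 2610042L04Rik (8.83), Gm3591 (11.06), Npas2 (6.93), Igfbp4 (2.10), Ccr7 (1.35), Lef1 (0.76), Cxcr6 (2.75), Batf (1.05), Maf (2.27), Ebi3 (4.01), Ptpn6 (0.97) and Tnfsf8 (2.69). It was smaller in CD4 cells, or fell more, for Olfr545 (-4.45), Ly6c1 (-5.50), Cd80 (-6.72), Gm17571 (-12.35), S100a4 (-3.16), Itgam (-4.00), Prf1 (-3.86) and Ccr10 (-7.41). Gm3252 was at 0 in every naive CD4 library and averaged 0.00685 CPM in primed and 0.00607 CPM in naive CD8 cells. Its value thus depends on the prior count. 2610042L04Rik and Gm3591 were likewise near 0 outside primed CD4 cells, so none of these sizes is firm. Olfr545, Cd80 and Gm17571 rested on naive batch 1, whose library 1 had 48.9, 434 and 2061 CPM.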

How the results depend on the processing

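The count of called genes, 1494, was 688 against naive batch 1 alone, 267 against naive batch 2 alone, 2437 with DESeq2, 2538 with all saline libraries in the fit and 882 to 1844 over leave-one-out fits; it was 1461 with the 6 labelled OT-II only, 1734 without those labelled OT-II 1 and 7, and 1108 with all 7 as labelled. Beyond 2-fold, 275 became 78 against naive batch 2 alone, 156 with limma voom and 180 to 287 over leave-one-out fits. With the replicate number as a block the counts were 405 and 139; equal numbers mark different mice here and pair no samples. The 282 differences between cell types became 511 with DESeq2, 469 without the 2 primed CD4 libraries that stood apart and 214 to 398 over leave-one-out fits. The cause of these moves was not tested, nor was the part of the fewer degrees of freedom in fits with fewer libraries. Over 133 named genes and all settings, 3263 results kept direction and side of the threshold, 413 lost the call, 8 gained one and 9 changed sign. Among the genes reported, DESeq2 ended the call of Dntt, voom those of Sspo, Cd80, Gm17571, S100a4, Itga1, Itgam, Il12rb2, Nfil3, Klrk1, Klrc1, Ctsw, Csf2, Atf3, Fosb, Ebf1 and Nkg7, and the 6 labelled OT-II alone those of Tcf7, S100a4, Gpr15, Il12rb2, Nfil3, Atf3, Birc5, Idi1, Sqle, Acsl3, Ebf1 and Pecam1. The log2 fold change of Foxp3 was -0.0399 with all 7 as labelled, -0.0431 against naive batch 2, -0.0486 with voom, -0.128 without OT-II 7 (lowest of the leave-one-out fits, highest 0.288) and -0.0514 without OT-II 1 and 7. The log2 fold change of Bcl6 was -0.10 against naive batch 2. With all 7 as labelled, the log2 fold change of Prf1 was 0.93 and the log2 fold change of Ccr10 was 1.79; without OT-II 1 and 7 it was 0.00811 for Ccr10. No scaling moved the median of all genes by more than 0.1. Genes under a few CPM, such as Csf2, rest on few counts.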
